A study of Mus musculus with 13 samples.

Results

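The TNF superfamily ligands described here are 8 genes: Tnf, Lta, Ltb, Tnfsf8, Tnfsf10, Tnfsf11, Tnfsf14 and Cd40lg. They were chosen by name, as the rows whose gene name is one of the 8 in all 3 count tables, and all 8 were found among the 22048 genes that the tables share. RNA was sequenced from mouse regulatory T cells (Tregs) and their thymic precursors, sorted as 3 populations that are called stages here. At each stage mice without c-Rel, the NF-kB family member made from the Rel gene, were set against mice with it. Knockout (KO) animals were cRel-/-Foxp3rfp and wild-type (WT) animals cRel+/+Foxp3rfp, all on C57BL6/J, so that every group carried the red Foxp3 reporter allele. The knockout allele is stated in the labels without a Cre driver, and no age is given for the animals. Pre-Tregs of the thymus comprised 3 KO and 2 WT libraries, de novo Tregs of the thymus 2 KO and 2 WT, and splenic Tregs 2 KO and 2 WT. CD4 T cells were enriched magnetically and the populations were then sorted by flow cytometry. The labels do not say whether libraries of a group came from separate animals, so p-values measure only the spread between these libraries, which may be technical.

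Ligands of the TNF superfamily are made as trimeric proteins, most of them anchored in the membrane of the cell that expresses them. They bind receptors of the TNF receptor superfamily on neighbouring cells, and the receptors recruit TRAF adaptors or death domain proteins that lead to NF-kB activation or to caspase cleavage. In the thymus, ligands on T cells signal to medullary epithelial cells, and RANKL, lymphotoxin and CD40 ligand are the ones best known for this. Several of the ligand genes, Tnf, Lta and Ltb among them, are themselves regulated by NF-kB proteins in lymphocytes.

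Library totals lay between 13656304 and 35114430 counts, and a floor of 3 counts corresponded to between 0.0854 and 0.228 CPM. CPM are counts per 1000000 counts of the library on the genes that the 3 tables share. Rel, the targeted gene, had 54.5 to 71.1 CPM in KO pre-Tregs, against 106.9 to 108.5 CPM in WT pre-Tregs. It had 87.2 to 94.6 CPM in KO de novo Tregs against 96.7 to 99.1 CPM in WT de novo Tregs, and 42.1 to 44.4 CPM in KO splenic Tregs against 45.5 to 54.9 CPM in WT splenic Tregs. The difference passed the test at none of the 3 stages. Rel transcripts were present in every KO library, and a count over the whole gene does not check the genotype. Foxp3, the defining Treg transcription factor, had 22.2 to 51.3 CPM in KO and 34.0 to 108.7 CPM in WT pre-Tregs, and between 658 and 894 CPM in the de novo and splenic libraries of both genotypes. The common biological coefficient of variation of the fit was 0.284 for the pre-Treg libraries, 0.0939 for the de novo libraries and 0.131 for the splenic libraries, so that a difference of a given size is harder to detect in pre-Tregs.

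Ltb, Tnf and Lta lie side by side on mouse chromosome 17 (GRCm38). Ltb occupies chr17:35194439-35196320 on the plus strand, Tnf chr17:35199381-35202007 on the minus strand and Lta chr17:35203165-35205351 on the minus strand. The gap from Ltb to Tnf is 3060 bases and the gap from Tnf to Lta 1157 bases. Tnfsf14 is on the same chromosome at chr17:57189492-57194189, minus strand. The others are at chr4:63831308-63861347 (Tnfsf8, minus), chr3:27317028-27342427 (Tnfsf10, plus), chr14:78277445-78308043 (Tnfsf11, minus) and chrX:57212143-57224042 (Cd40lg, plus). In the exon coordinates deposited with the pre-Treg table no exon of another gene overlapped the exons of any of the 8, on either strand.

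RefSeq promoter sequences (GRCm38.p6) were matched by symbol for 7 of the 8 genes. Below are the bases before the start of transcription for the 3 neighbours and for Tnfsf8, because the first 3 adjoin each other and Lta and Tnfsf8 are called for genotype in what follows. Each is read 5′ to 3′ on the strand of the gene, from 250 bases upstream down to the start of the gene in the deposited annotation. They cover chr17:35202008-35202257 (Tnf, minus), chr17:35205352-35205601 (Lta, minus), chr17:35194257-35194438 (Ltb, plus) and chr4:63861348-63861534 (Tnfsf8, minus). Capitals mark a match, on either strand, to the NF-kB motif (GGG, any 5 bases, CC) or to the Rel-type motif (GG, any 4 bases, TTCC).
Tnf: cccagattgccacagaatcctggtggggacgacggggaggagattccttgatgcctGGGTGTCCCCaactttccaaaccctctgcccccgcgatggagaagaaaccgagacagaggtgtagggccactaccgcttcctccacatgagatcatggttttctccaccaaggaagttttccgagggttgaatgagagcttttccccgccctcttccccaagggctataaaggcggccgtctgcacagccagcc
Lta: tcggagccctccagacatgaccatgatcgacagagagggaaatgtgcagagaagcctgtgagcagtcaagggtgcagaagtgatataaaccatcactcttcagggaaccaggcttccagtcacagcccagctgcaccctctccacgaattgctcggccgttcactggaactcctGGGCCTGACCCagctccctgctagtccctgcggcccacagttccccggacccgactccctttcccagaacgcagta
Ltb: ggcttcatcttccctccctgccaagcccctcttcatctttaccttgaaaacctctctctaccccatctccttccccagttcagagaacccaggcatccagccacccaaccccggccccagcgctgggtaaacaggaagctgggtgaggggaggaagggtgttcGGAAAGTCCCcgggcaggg
Tnfsf8: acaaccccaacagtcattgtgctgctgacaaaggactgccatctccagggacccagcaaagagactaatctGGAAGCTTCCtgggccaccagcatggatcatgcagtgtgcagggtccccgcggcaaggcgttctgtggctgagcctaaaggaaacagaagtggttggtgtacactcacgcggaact
The NF-kB motif was matched in 5 of the 7 promoters, those of Tnf, Lta, Ltb, Tnfsf11 and Tnfsf14, and in 45.8% of the 32851 RefSeq promoters of the same 250 bases. The Rel-type motif was matched in 2 of the 7, Ltb and Tnfsf8, and in 15.2% of all promoters. In Ltb both motifs fell on the same 10 bases, 87 to 78 bases upstream, with further NF-kB matches between 40 and 29 bases upstream, past the printed bases. In Tnfsf8 the match lay 179 to 170 bases upstream. The AP-1 motif TGANTCA was matched in Tnfsf14 alone among the 7, and in 6.75% of all promoters. A match here is a string of letters in a window and not a measured binding site.

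Levels were compared between the ligands only per kilobase of gene length, as CPM divided by the gene's length in kilobases (RPKM). Ltb, the membrane anchor subunit of lymphotoxin heterotrimers, had the highest RPKM of the 8 in every group. It made up 57.4% of the summed ligand RPKM in KO and 56.2% in WT pre-Tregs, 83.5% and 86.5% in KO and WT de novo Tregs, and 82.9% and 84.1% in KO and WT splenic Tregs. Ltb had 342 ± 142 RPKM in KO pre-Tregs (SD, n = 3) and 322 ± 0.934 RPKM in WT pre-Tregs (SD, n = 2). De novo Tregs had 1195 ± 90.5 RPKM in KO and 1141 ± 136 RPKM in WT libraries, and in splenic Tregs 1246 ± 193 RPKM in KO and 1094 ± 52.9 RPKM in WT libraries (SD, n = 2 each). In pre-Tregs of both genotypes Cd40lg came after Ltb in RPKM, followed by Lta, Tnfsf11, Tnfsf8, Tnf, Tnfsf10 and Tnfsf14. In de novo and splenic Tregs of both genotypes Lta was second.

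The middle of that order was where neighbours changed places. In KO de novo Tregs Cd40lg (31.1 ± 6.25 RPKM) stood above Tnfsf8 (13.2 ± 0.757 RPKM), whereas in WT de novo Tregs Tnfsf8 (25.8 ± 0.603 RPKM) stood above Cd40lg (17.4 ± 2.48 RPKM), with no overlap between the libraries in either genotype (SD, n = 2 each). In KO pre-Tregs the libraries of Tnfsf8 and Tnf overlapped, as did those of Tnfsf10 and Tnfsf14. In splenic Tregs Tnfsf8, Tnf and Tnfsf11 lay close together in RPKM. There the ranges of Tnfsf8 and Tnf overlapped in KO libraries, and in WT libraries those of Tnfsf8 and Tnfsf11, and of Tnfsf11 and Tnf, overlapped. Tnfsf14, which encodes LIGHT, was the lowest of the 8 in every group, with 0.605 ± 0.159 RPKM in KO and 1.36 ± 0.0413 RPKM in WT de novo Tregs.

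**Figure D1:**
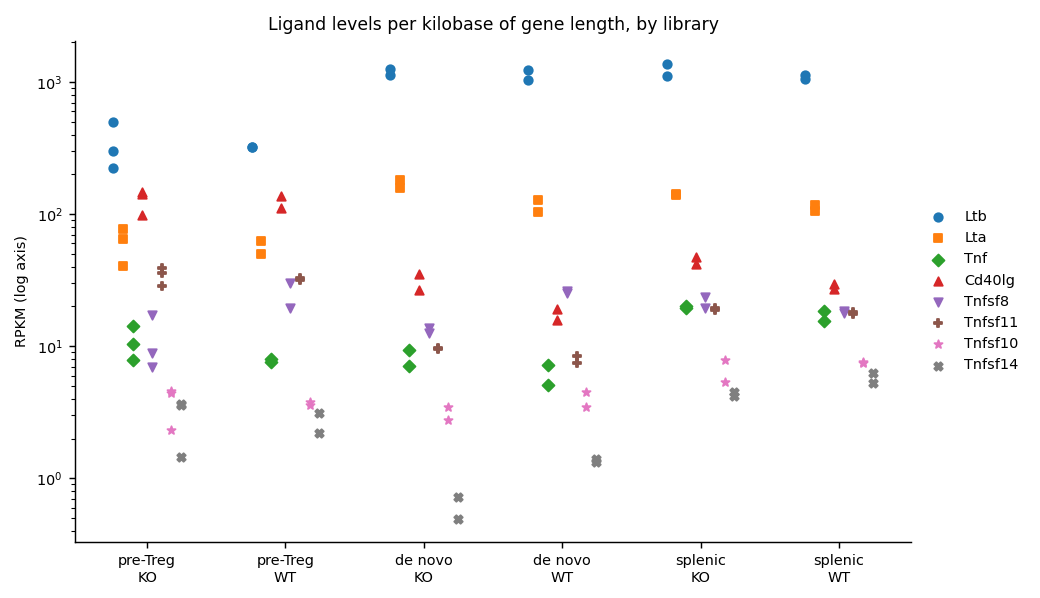
RPKM of each ligand in each of the 13 libraries, on a log axis, with groups ordered by stage and KO left of WT. Ltb stands above every other ligand in each group, and Tnfsf14 has the lowest group mean throughout.

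Genotype was compared within each stage, KO over WT, with edgeR's quasi-likelihood test, and a gene was called at a Benjamini-Hochberg adjusted p under 0.05 over all genes tested. All 8 ligands passed the filter on low counts in every comparison. In de novo Tregs 3 of the 8 were called, where 6.46% of the 11855 genes tested were. Lta and Cd40lg rose in KO cells (2 of 8, beside 2.92% of all genes) and Tnfsf8 fell (1 of 8, beside 3.54%). The median log2 fold change of the 8 was 0.19, against -0.00268 for all genes tested.

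Cd40lg encodes CD40 ligand, the T cell signal to CD40 on B cells, dendritic cells and thymic epithelium. Its de novo libraries had 44.3 and 33.3 CPM in KO libraries, against 24.0 and 19.6 CPM in WT libraries. Both KO libraries lay above both WT libraries. The log2 fold change was 0.85 (SE 0.15, edgeR adjusted p = 0.00651).

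Lta encodes lymphotoxin alpha, which is secreted as a homotrimer or joined with lymphotoxin beta at the membrane. It had 219 and 252 CPM in KO de novo libraries, against 144 and 176 CPM in WT de novo libraries, again with no overlap. The log2 fold change was 0.58 (SE 0.11, edgeR adjusted p = 0.00792). Without WT replicate 1 it was 0.44 and the adjusted p 0.0512, so that the call rested on that library.

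Tnfsf8 encodes CD30 ligand. Its de novo libraries had 48.3 and 52.4 CPM in KO libraries, against 96.5 and 99.7 CPM in WT libraries. The replicates of each genotype were close to each other, and the groups were well apart. The log2 fold change was -0.95 (SE 0.09, edgeR adjusted p = 0.000102). All 3 calls held with DESeq2, with limma-voom, with another normalization and without the count filter. None held when the spread was estimated from all 13 libraries together, at adjusted p of 0.0953 for Cd40lg, 0.597 for Lta and 0.357 for Tnfsf8.

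**Figure D2:**
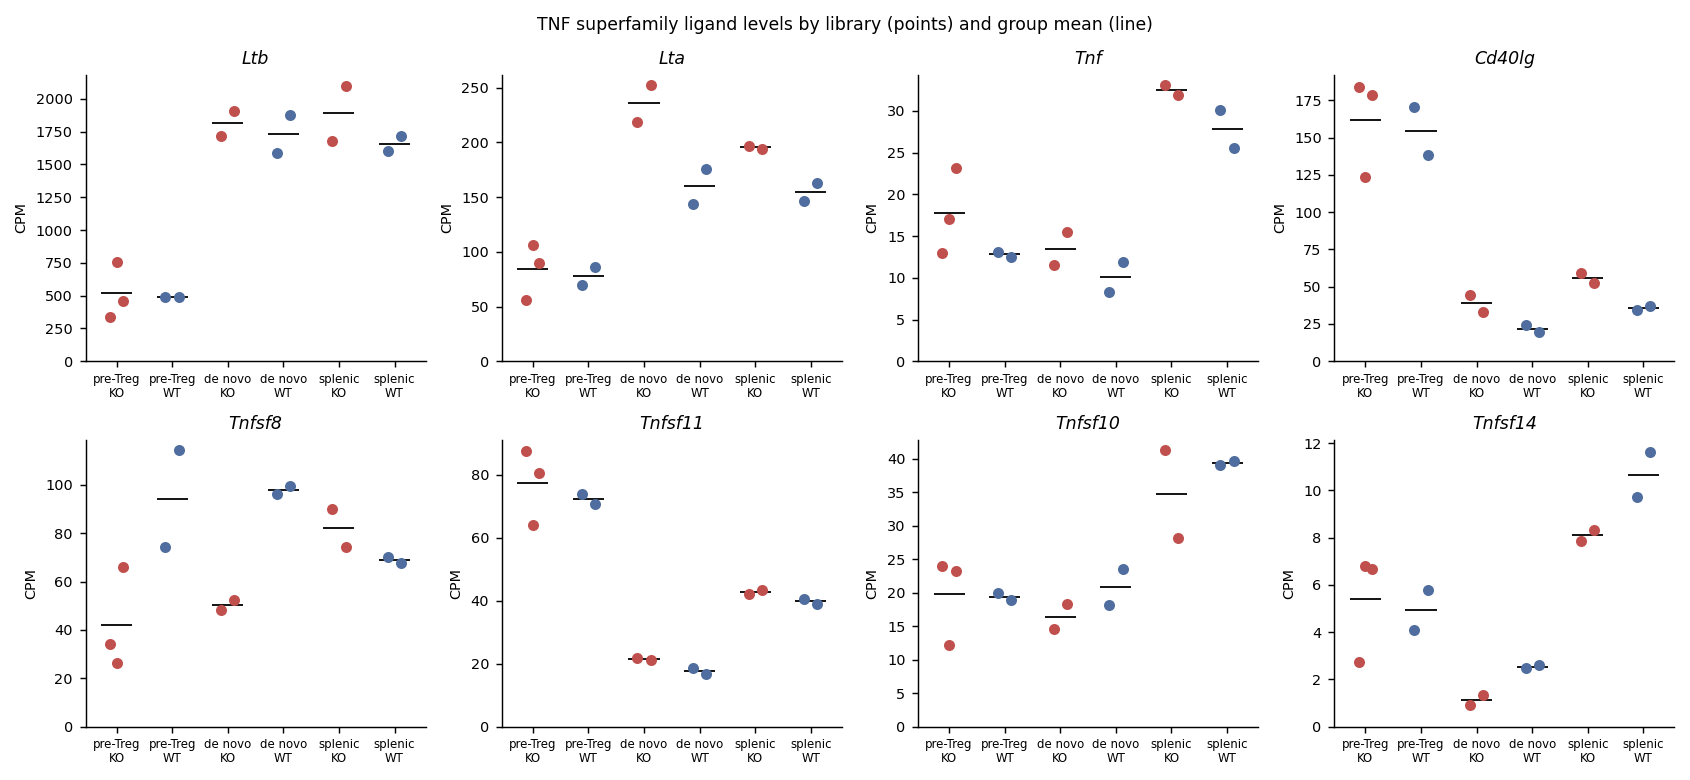
CPM of each ligand in each library (points) with the group mean (line), with stages left to right and KO left of WT within a stage. In de novo Tregs the KO points of Lta and Cd40lg lie above the WT points and those of Tnfsf8 below them.

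The other 5 ligands were not called in de novo Tregs. Tnfsf14, with 0.916 and 1.33 CPM in KO libraries (23 and 36 counts) against 2.48 and 2.58 CPM in WT libraries (68 and 73 counts), had a log2 fold change of -1.15 (SE 0.39, edgeR adjusted p = 0.124). Tnfsf11, which encodes RANKL, had 21.9 and 21.2 CPM in KO libraries against 18.7 and 16.6 CPM in WT libraries, a log2 difference of 0.30 (SE 0.13, edgeR adjusted p = 0.261). In both genes the KO and WT libraries did not overlap, which with Lta, Cd40lg and Tnfsf8 made 5 of the 8, beside 47.8% of all genes tested. Tnf, the founding cytokine of the family, had 11.5 and 15.5 CPM in KO and 8.27 and 11.9 CPM in WT de novo libraries, and these overlapped. Tnfsf10, which encodes TRAIL, a ligand of death receptors, had 14.5 and 18.3 CPM in KO and 18.2 and 23.6 CPM in WT de novo libraries, also with overlap. Ltb had 1715 and 1909 CPM in KO and 1585 and 1876 CPM in WT de novo libraries, so that the gene next to Tnf and Lta differed by 0.08 on the log2 scale (SE 0.09, edgeR adjusted p = 0.707).

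In splenic Tregs 0 of the 8 ligands were called, beside 1.37% of the 12264 genes tested with edgeR. At an unadjusted p under 0.05 there were 2 of the 8 (Cd40lg and Lta) and 1749 of all genes. The median log2 fold change of the 8 was 0.21, against 0.000548 for all genes. Cd40lg was the nearest to the threshold. It had 59.5 and 52.4 CPM in KO libraries against 34.2 and 37.1 CPM in WT libraries, a log2 fold change of 0.65 (SE 0.12, edgeR adjusted p = 0.0517). The KO libraries were both above the WT libraries. Cd40lg was called in splenic Tregs by DESeq2 (adjusted p = 0.00114), by limma-voom (0.0468) and by edgeR without the count filter (0.0112). It was not called with RLE normalization, with the spread shared over all 13 libraries, or without either WT library.

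Lta had 197 and 194 CPM in KO splenic libraries and 147 and 163 CPM in WT splenic libraries, a log2 difference of 0.34 (SE 0.10, edgeR adjusted p = 0.171) with no overlap. Tnfsf8 had 90.1 and 74.3 CPM in KO and 70.2 and 67.8 CPM in WT splenic libraries (0.25, SE 0.13, edgeR adjusted p = 0.414). Its KO libraries were both above its WT libraries, the other way round from de novo Tregs. Tnfsf14 had 7.86 and 8.33 CPM in KO and 9.72 and 11.6 CPM in WT splenic libraries (-0.40, SE 0.18, edgeR adjusted p = 0.374), with all KO values below all WT values. The libraries did not overlap in 6 of the 8 genes, those already named with Tnf and Tnfsf11, beside 46.4% of all genes tested.

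For the rest the splenic differences were small. Tnf had 33.1 and 31.9 CPM in KO and 30.1 and 25.6 CPM in WT splenic libraries, and Tnfsf11 42.1 and 43.4 CPM in KO and 40.5 and 39.0 CPM in WT. Ltb had 1682 and 2097 CPM in KO and 1602 and 1716 CPM in WT splenic libraries, and Tnfsf10 41.4 and 28.2 CPM in KO and 39.0 and 39.7 CPM in WT. In both Ltb and Tnfsf10 the KO replicates were further apart than the genotype means. The 2 KO splenic libraries differed more from each other over all genes than the 2 WT libraries did. The chi-square per degree of freedom of their counts was 41.3 in KO and 9.06 in WT. Leaving out either leaves 1 KO library, so that the spread of such a fit comes from the WT libraries alone. Without KO replicate 1 the log2 fold change was 0.57 for Cd40lg, 0.34 for Lta, 0.35 for Ltb and -0.47 for Tnfsf10. Without KO replicate 2 it was 0.74 for Cd40lg, 0.34 for Lta, 0.38 for Tnfsf8 and 0.0685 for Tnfsf10.

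In pre-Tregs 0 of the 8 ligands were called, and 0% of the 14746 genes tested with edgeR were. At an unadjusted p under 0.05 there were 969 genes, with Tnfsf8 the only ligand among them. The median log2 fold change of the 8 was 0.09, against 0.03 for all genes. DESeq2 called 88 genes in pre-Tregs, limma-voom 0, and neither called a ligand. Tnfsf8 had 34.1, 26.5 and 66.1 CPM in KO pre-Treg libraries, against 74.1 and 114 CPM in WT pre-Treg libraries. All KO values were below the WT values, although the third KO library was close to the lower WT library. The log2 fold change was -1.18 (SE 0.37, edgeR adjusted p = 0.72). Tnfsf8 was the only one of the 8 whose pre-Treg groups did not overlap, beside 27.7% of the genes tested that are in all 3 tables.

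The remaining ligands overlapped between the genotypes in pre-Tregs. Cd40lg had 184, 123 and 178 CPM in KO and 170.5 and 138 CPM in WT libraries, and Tnfsf11 87.5, 64.0 and 80.5 CPM in KO and 73.7 and 70.5 CPM in WT. Lta had 55.9, 106 and 89.8 CPM in KO and 69.4 and 86.3 CPM in WT pre-Treg libraries, and Ltb 339, 756 and 459 CPM in KO and 487 and 489 CPM in WT. KO replicate 2 was the highest of the KO libraries for both lymphotoxin genes and the lowest for Cd40lg and Tnfsf11. That library also had the most counts of the stage, 29866696. Over all genes its chi-square per degree of freedom was 133 and 75.1 against the other KO libraries, and 26.9 between those. Without it 64 genes were called for genotype in pre-Tregs, against 0 in the full comparison, and again 0 ligands. Tnf had 12.9, 17.1 and 23.1 CPM in KO and 13.1 and 12.5 CPM in WT pre-Treg libraries, with a log2 difference of 0.45 (SE 0.30, edgeR adjusted p = 0.724). Tnfsf10 had 24.0, 12.2 and 23.3 CPM in KO and 19.9 and 18.9 CPM in WT, and Tnfsf14 2.71, 6.79 and 6.67 CPM in KO and 4.10 and 5.77 CPM in WT.

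**Figure D3:**
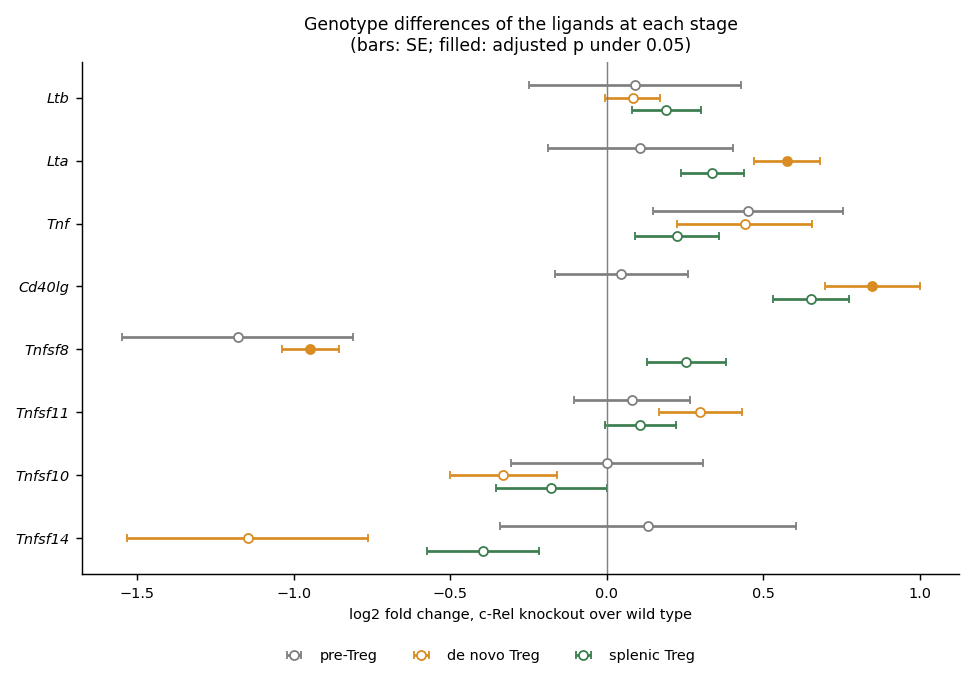
Log2 fold change of KO over WT for each ligand at each stage, with the SE of the edgeR fit and filled points at an adjusted p under 0.05. The 3 filled points are Lta, Cd40lg and Tnfsf8 in de novo Tregs, and Tnfsf8 lies left of 0 in both thymic stages and right of it in splenic Tregs.

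Markers of other cells that can express these ligands were summed in each library. In de novo Tregs the markers of group 3 innate lymphoid and lymphoid tissue inducer cells, which make lymphotoxin and RANKL, summed to 55.3 to 60.2 CPM in KO libraries, against 123 to 136 CPM in WT libraries, over 4 genes. That sum was mostly Kit, with 21.6 to 24.0 CPM in KO and 76.0 to 90.1 CPM in WT libraries, and Id2. Kit was the 1 of the 2 tested that fell. Of the other genes Il23r, a cytokine receptor of these cells, had 7 and 0 counts in KO and 6 and 7 counts in WT de novo libraries, and Il22, a cytokine they make, was at 0 in all 4 libraries. The thymic stroma list summed to 307 to 308 CPM in KO and 230.4 to 230.6 CPM in WT de novo libraries, nearly all of it from Epcam and Pecam1, both called as higher in KO cells. Of its epithelial genes other than Epcam, Krt8 had 1 and 6 counts in KO and 4 and 0 counts in WT de novo libraries, and Krt5 and Psmb11 were at 0 in the 4 libraries.

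B cell markers summed to 33.0 to 37.1 CPM in KO and 30.0 to 31.5 CPM in WT de novo libraries, and to 59.7 to 92.4 CPM in KO and 39.5 to 49.7 CPM in WT splenic libraries. Cd79b made up most of both sums and was called as higher in KO cells at both stages. Of the 4 B cell markers tested in de novo Tregs, 1 rose and 1 fell. There 1 of the 4 had a log2 fold change above 0, with a median of -1. Of the 6 tested in splenic Tregs, 1 rose, 0 fell and 5 were above 0, with a median of 1.23. Ms4a1 had 0.0310 to 5.24 CPM in KO and 0.359 to 0.816 CPM in WT splenic libraries. Myeloid markers summed to 1.89 to 24.7 CPM in KO and 36.3 to 66.0 CPM in WT splenic libraries, with 0 of 8 called. Of these 8, 1 had a log2 fold change above 0, with a median of -1.77. In pre-Tregs the same markers summed to 8.72 to 77.65 CPM in KO and 3.80 to 25.37 CPM in WT libraries. There 0 of 7 tested were called, but 6 were above 0, with a median of 1.6. Erythroid markers summed to 0.597 to 0.927 CPM in KO and 2.66 to 99.6 CPM in WT de novo libraries, and 2 of the 3 tested fell. Markers of CD8 T and natural killer cells, which can express Fasl, Lta and Tnf, summed to 31.0 to 38.6 CPM in KO and 36.4 to 41.6 CPM in WT de novo libraries, and 0 of 5 tested were called. In splenic Tregs they summed to 28.7 to 33.8 CPM in KO and 44.1 to 44.6 CPM in WT libraries. There 0 of 6 were called, but all 6 had a log2 fold change below 0, with a median of -0.67. The part of these markers in the ligand values was not tested.

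Over all 13 libraries, with stage as a covariate, 0 of the 8 ligands were called for genotype, beside 0.85% of 13058 genes. The common log2 difference was 0.47 for Cd40lg (SE 0.14, edgeR adjusted p = 0.189), 0.32 for Lta (SE 0.14, adjusted p = 0.433) and -0.67 for Tnfsf8 (SE 0.24, adjusted p = 0.288). Unadjusted p was under 0.05 in 4 of the 8, these 3 and Tnf, and in 1410 genes in all. Without pre-Treg KO replicate 1 the adjusted p of Lta was 0.0422, and without pre-Treg KO replicate 2 that of Cd40lg was 0.0265. DESeq2 called 327 genes and none of the ligands.

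Whether the genotype difference itself changed with stage was tested in the fit of 6 group means, and 0 of the 8 ligands were called, jointly or between any 2 stages. The share of all genes called was 0.161% in the joint test, 0.0842% for de novo minus pre-Treg, 0.214% for splenic minus pre-Treg and 0.00766% for splenic minus de novo. The genotype difference of Tnfsf8 was 1.44 greater on the log2 scale in splenic Tregs than in pre-Tregs (SE 0.43, edgeR adjusted p = 0.175), and 1.20 greater than in de novo Tregs (SE 0.45, edgeR adjusted p = 0.756). The first of these was called by DESeq2, at an adjusted p of 0.0441. At an unadjusted p under 0.05 the joint test listed Tnfsf8 and Cd40lg among 1374 genes. The opposite signs of Tnfsf8 in thymic and splenic cells were thus not past the threshold as a difference between stages with edgeR.

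Stage was compared within each genotype, later over earlier, in the fit of 6 group means. Stage coincides with count table throughout, and the splenic stage also with tissue, so that these cannot be told apart. From pre-Tregs to de novo Tregs 5 of the 8 ligands were called in KO cells, beside 32.4% of 13058 genes, and 4 of the 8 in WT cells, beside 30.7%. Ltb and Lta rose in both genotypes, where 15.4% of all genes rose in KO cells and 16.1% in WT cells. Tnfsf11 and Cd40lg fell in both, and Tnfsf14 in KO cells, where 17% of all genes fell in KO cells and 14.7% in WT cells. In these bulk libraries fewer cells that express a gene and less RNA of it per cell cannot be told apart.

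The lymphotoxin genes were higher in de novo Tregs. Ltb rose by 1.99 on the log2 scale in KO cells (SE 0.26, edgeR adjusted p = 0.000147) and by 1.98 in WT cells (SE 0.30, adjusted p = 0.000767), the lowest de novo library (1585 CPM) lying far above the highest pre-Treg library (756 CPM). Lta rose by 1.68 in KO cells (SE 0.23, edgeR adjusted p = 0.000172) and by 1.20 in WT cells (SE 0.25, adjusted p = 0.00522). The WT call of Lta was lost without pre-Treg WT replicate 1 (adjusted p = 0.0616) or de novo WT replicate 2 (0.0557). Tnf, which lies between them on the chromosome, was not called in this step, and its log2 difference was -0.19 in KO cells (SE 0.25, edgeR adjusted p = 0.578) and -0.19 in WT cells (SE 0.28, adjusted p = 0.617).

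Cd40lg and Tnfsf11 were lower in de novo Tregs. Cd40lg fell by 1.85 on the log2 scale in KO cells (SE 0.19, edgeR adjusted p = 2.59e-05) and by 2.67 in WT cells (SE 0.21, adjusted p = 1.14e-05). Its de novo libraries lay between 19.6 and 44.3 CPM in both genotypes together, and its pre-Treg libraries between 123 and 184 CPM. Tnfsf11 fell by 1.64 in KO cells (SE 0.14, edgeR adjusted p = 5.11e-06) and by 1.87 in WT cells (SE 0.15, adjusted p = 1.14e-05). Its group means were 21.5 and 17.7 CPM in KO and WT de novo Tregs, against 77.3 and 72.1 CPM in KO and WT pre-Tregs. In this step the summed markers of group 3 innate lymphoid and lymphoid tissue inducer cells were lower. They summed to 55.3 to 60.2 CPM in KO and 123 to 136 CPM in WT de novo libraries. In pre-Treg libraries the sums were 174.7 to 237.5 CPM in KO and 196.5 to 250.1 CPM in WT. Of the 3 tested, 2 fell in KO cells (Id2 and Kit) and 1 in WT cells (Id2). Markers of CD8 T and natural killer cells also fell, 4 of 6 in KO and 2 of 6 in WT cells. The part of these markers in the ligand values was not tested. Tnfsf14 fell by 2.07 in KO cells (SE 0.41, edgeR adjusted p = 0.0023), while in WT cells its difference was -0.80 (SE 0.41, adjusted p = 0.148) and passed the test without pre-Treg KO replicate 1 (0.031). The difference between the genotypes in this step was not called for Tnfsf14 or Cd40lg, as given above for de novo minus pre-Treg.

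Tnfsf8 and Tnfsf10 were not called between pre-Tregs and de novo Tregs in either genotype. Without pre-Treg KO replicate 3, the highest of the KO libraries for Tnfsf8, that gene passed the test in KO cells with a log2 difference of 0.94 (edgeR adjusted p = 0.00481). The libraries of the 2 stages did not overlap in 5 of the 8 ligands in KO cells, beside 54.7% of genes, and in 6 of the 8 in WT cells, beside 75.1%.

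From de novo to splenic Tregs 4 of the 8 ligands were called in KO cells, beside 12.9% of 13058 genes, and 3 of the 8 in WT cells, beside 7.45%, all of them higher in the spleen. Of all genes 6.48% rose and 6.39% fell in KO cells, and 3.5% rose and 3.95% fell in WT cells. Tnfsf14, a ligand of HVEM and the lymphotoxin beta receptor, rose by 2.80 on the log2 scale in KO cells (SE 0.43, edgeR adjusted p = 0.00126) and by 2.05 in WT cells (SE 0.40, adjusted p = 0.00862). Tnfsf11 rose by 0.95 in KO cells (SE 0.15, edgeR adjusted p = 0.00132) and by 1.14 in WT cells (SE 0.15, adjusted p = 0.000803). All its splenic libraries (39.0 to 43.4 CPM) lay below all its pre-Treg libraries (64.0 to 87.5 CPM). The markers of group 3 innate lymphoid and lymphoid tissue inducer cells were summed for this step too. They summed to 51.0 to 59.5 CPM in KO and 55.8 to 58.1 CPM in WT splenic libraries. Against de novo libraries (55.3 to 60.2 CPM in KO, 123 to 136 CPM in WT), 0 of 3 rose and 1 fell in each genotype. Of the 3, 2 had a log2 fold change above 0 in each genotype, with a median of 0.51 in KO and 0.117 in WT cells. Tnf rose by 1.23 in KO cells (SE 0.27, edgeR adjusted p = 0.0107) and by 1.44 in WT cells (SE 0.27, adjusted p = 0.00693). Its 4 splenic libraries (25.6 to 33.1 CPM) were the highest of all 13. Myeloid markers summed to 4.99 to 10.9 CPM in WT de novo libraries, against 36.3 to 66.0 CPM in WT splenic libraries. In KO libraries these sums were 2.48 to 11.3 CPM and 1.89 to 24.7 CPM. Of the 8 tested, 1 rose in WT cells and 0 in KO cells. Of 6 CD8 T and natural killer markers, 4 rose and 1 fell in WT cells, and 2 rose and 2 fell in KO cells. How much these markers add to the ligand values was not tested.

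Tnfsf10 rose by 1.04 in KO cells (SE 0.28, edgeR adjusted p = 0.0278), while in WT cells its difference was 0.89 (SE 0.28, adjusted p = 0.0738). Cd40lg differed by 0.49 in KO cells (SE 0.20, edgeR adjusted p = 0.14) and by 0.68 in WT cells (SE 0.20, adjusted p = 0.0595). The calls of this step rested on few libraries. Those of Tnf and Tnfsf10 in KO cells were lost without de novo KO replicate 1, at adjusted p of 0.123 and 0.214, and each was lost on leaving out at least 1 further library. In WT cells Tnf and Tnfsf14 were lost without de novo WT replicate 1, at adjusted p of 0.106 and 0.0969, and each on leaving out at least 1 further library. The pre-Treg libraries enter this step only through the shared spread, and calls were gained without some of them. Without pre-Treg KO replicate 2 these were Cd40lg in KO cells (adjusted p = 0.0339) and, in WT cells, Cd40lg (0.00856) and Tnfsf10 (0.00495). Without KO replicate 1 they were Cd40lg (0.0414) and Tnfsf10 (0.0491) in WT cells, and without KO replicate 3 Tnfsf8 (0.0402) in KO cells. The calls of Tnfsf11 in both genotypes and of Tnfsf14 in KO cells held with every library left out in turn. The stages did not overlap in 7 of the 8 ligands in KO cells, beside 61.1% of genes, and in 6 of the 8 in WT cells, beside 67.5%.

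**Figure D4:**
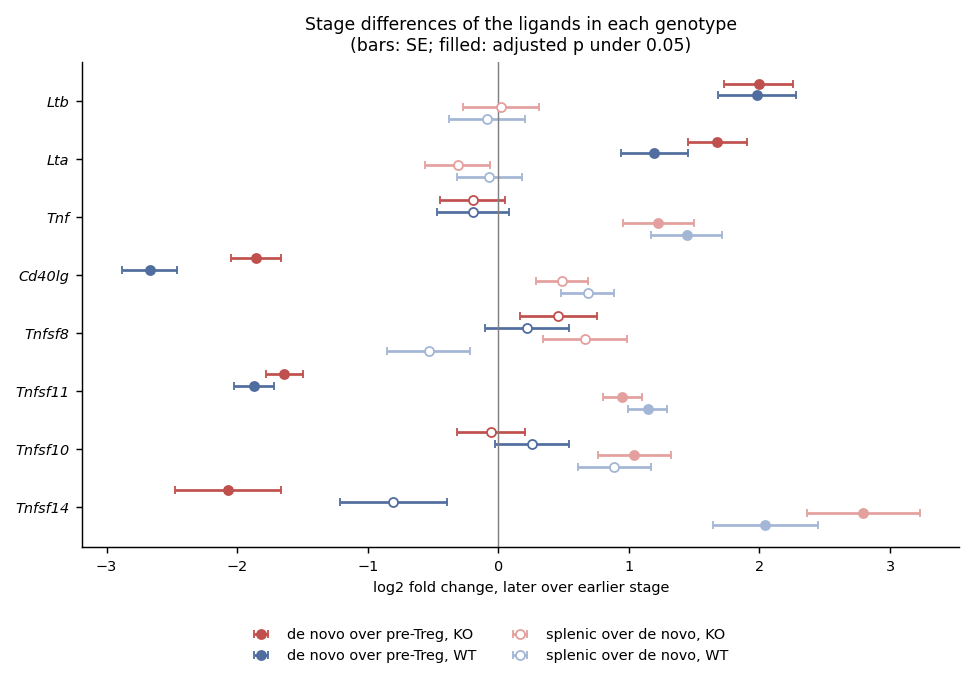
Log2 fold change of the later over the earlier stage for each ligand, in KO and WT cells, with the SE of the edgeR fit and filled points at an adjusted p under 0.05. Ltb and Lta are right of 0 and Cd40lg and Tnfsf11 left of 0 from pre-Treg to de novo Treg, and every filled point from de novo to splenic Treg is right of 0.

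The receptors that these ligands bind, with their decoys, were a list of 11 genes. In de novo Tregs 9 were tested, of which 0 rose and 2 fell in KO cells, with a median log2 fold change of -0.36 against -0.00268 for all genes tested. The larger difference was in Tnfrsf8, which encodes CD30, the receptor of the Tnfsf8 product. Tnfrsf8 had 0.916 and 1.04 CPM in KO de novo libraries (23 and 28 counts), against 7.87 and 7.47 CPM in WT de novo libraries (216 and 211 counts). The groups were far apart, and the log2 fold change was -2.95 (SE 0.28, edgeR adjusted p = 7.75e-05). Tnfrsf1b, which encodes TNF receptor 2, had 511 and 529 CPM in KO de novo libraries against 676 and 670.1 CPM in WT, a log2 fold change of -0.36 (SE 0.07, edgeR adjusted p = 0.00949).

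In splenic Tregs 9 receptors were tested, of which 0 rose and 1, Tnfrsf8, fell in KO cells. It had 11.1 and 9.17 CPM in KO splenic libraries, against 27.3 and 27.8 CPM in WT splenic libraries, with a log2 fold change of -1.44 (SE 0.15, edgeR adjusted p = 0.0119). CD30 ligand and its receptor were thus both lower in KO de novo Tregs, whereas in KO splenic Tregs the receptor fell and the ligand was not called. In pre-Tregs 10 receptors were tested and 0 were called, and Tnfrsf8 had between 1.60 and 7.24 CPM over the 5 libraries. The call of Tnfrsf8 in de novo Tregs held with every alternative run, and the one in splenic Tregs with all but the spread shared over 13 libraries (adjusted p = 0.21). That of Tnfrsf1b was also lost with the shared spread (adjusted p = 0.905).

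Of the other receptors, Tnfrsf1a, which encodes TNF receptor 1, had 22.3 to 54.6 CPM over all libraries and was not called for genotype at any stage. Tnfrsf22, a decoy receptor for TRAIL in the mouse, had 10.7 to 47.7 CPM, and it rose in both stage steps in both genotypes, by 0.74 to 1.15 on the log2 scale. The call in the splenic step in WT cells was lost on leaving out any 1 of its 4 libraries (adjusted p up to 0.142). The receptors of stromal and antigen-presenting cells were low in these libraries: Ltbr had 0 to 2.33 CPM, Cd40 0.0760 to 1.79 CPM, Tnfrsf11a 0 to 3.88 CPM and Tnfrsf11b, the RANKL decoy, 0 to 0.456 CPM.

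**Figure D5:**
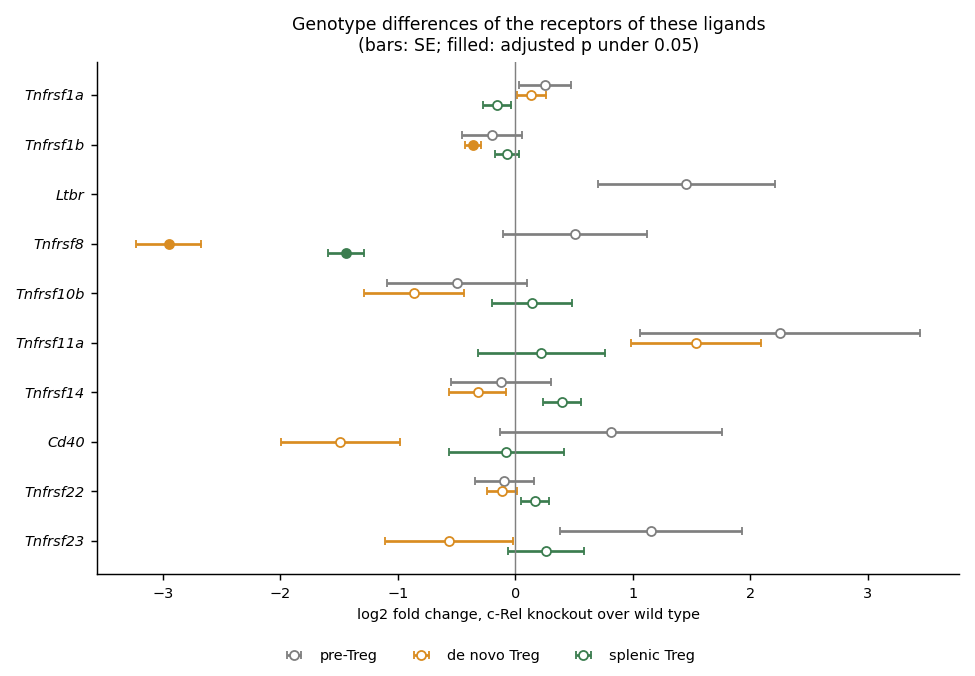
Log2 fold change of KO over WT for the tested receptors and decoys of the ligands at each stage, with the SE of the edgeR fit and filled points at an adjusted p under 0.05. Tnfrsf8 in de novo and splenic Tregs and Tnfrsf1b in de novo Tregs are the filled points, all left of 0.

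Of the superfamily, 10 further ligands were listed, and between 1 and 5 of them were at 0 in each library. Between 4 and 6 were tested in each genotype comparison and 0 were called, although leaving out single splenic libraries gave up to 2 that rose and 1 that fell. Both Tnfsf4 and Fasl changed with stage in both genotypes. Tnfsf4, which encodes OX40 ligand, fell from pre-Tregs to de novo Tregs by 2.39 on the log2 scale in KO cells (SE 0.29, edgeR adjusted p = 9.01e-05) and by 3.46 in WT cells (SE 0.32, adjusted p = 2.88e-05). Fasl, the ligand of the death receptor Fas, fell in the same step by 1.31 in KO cells (SE 0.38, edgeR adjusted p = 0.0187) and by 1.71 in WT cells (SE 0.40, adjusted p = 0.00885). From de novo to splenic Tregs Fasl rose by 2.11 in KO cells (SE 0.40, edgeR adjusted p = 0.0046) and by 1.60 in WT cells (SE 0.40, adjusted p = 0.0277). In KO cells Tnfsf13b also rose in that step (edgeR adjusted p = 0.0168), a call that held in 13 of 16 alternatives. Tnfsf4 fell there (edgeR adjusted p = 0.00259), and its call held in 16 of 16. All 4 of these Fasl calls were lost on leaving out 1 or more single libraries, with adjusted p of up to 0.147 in KO and 0.102 in WT cells in the first step, and of up to 0.0636 in KO and 0.22 in WT cells in the second. Markers of CD8 T and natural killer cells, which express Fasl, moved in the same steps. In the first, 4 of 6 fell in KO cells and 2 of 6 in WT cells, and 0 rose. In the second, 2 rose (Gzmb and Ncr1) and 2 fell (Cd8a and Cd8b1) in KO cells, and 4 rose (Gzmb, Ncr1, Klrd1 and Klrb1c) and 1 fell (Cd8a) in WT cells. Their part in the Fasl values was not tested.

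Downstream of the receptors, 15 TRAF and death domain signalling genes were all tested. In KO de novo Tregs 1 rose and 2 fell. Casp8, the initiator caspase of death receptors, rose by 0.46 on the log2 scale (SE 0.07, edgeR adjusted p = 0.00255). Birc2, a ubiquitin ligase of the TRAF complex, fell by 0.47 (SE 0.09, edgeR adjusted p = 0.00869), and Tnfaip3, which encodes the NF-kB inhibitor A20, fell by 0.85 (SE 0.22, adjusted p = 0.0427). With the spread shared over 13 libraries the calls of Casp8 (adjusted p = 0.266), Birc2 (0.602) and Tnfaip3 (0.196) were lost. The call of Tnfaip3 was also lost with DESeq2 (adjusted p = 0.415), with limma-voom (0.0744) and without WT replicate 1. Among the 5 NF-kB subunit genes Relb rose by 0.34 (SE 0.07, edgeR adjusted p = 0.0215). That call was lost with the shared spread, and without KO replicate 2 or either WT library. In pre-Tregs and splenic Tregs 0 of these 20 genes were called for genotype. Without pre-Treg KO replicate 2, 1 of the 15 rose in KO pre-Tregs. Leaving out single splenic libraries gave up to 2 of the 15 that rose and 2 that fell, and up to 2 subunit genes that rose.

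More of the signalling genes were called for stage, as was so of all genes. From pre-Tregs to de novo Tregs 7 of the 15 rose and 0 fell in KO cells, beside 15.4% and 17% of all genes. In WT cells 8 rose and 1 fell, beside 16.1% and 14.7%. Traf1, an adaptor of TNF receptor 2, rose by 2.05 on the log2 scale in KO cells (SE 0.16, edgeR adjusted p = 2.56e-06) and by 1.60 in WT cells (SE 0.18, adjusted p = 0.000101). Casp8 rose by 1.66 in KO cells (SE 0.13, edgeR adjusted p = 2.34e-06) and by 1.01 in WT cells (SE 0.14, adjusted p = 0.000471). Leaving out single libraries gave between 5 and 8 that rose in KO cells and between 4 and 8 in WT cells.

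The genes on either side of Ltb, Tnf and Lta were a list of 8, of which 6 or 7 were tested. None was called for genotype at any stage, where Lta was called in de novo Tregs, although leaving out single splenic libraries gave up to 1 that fell. From pre-Tregs to de novo Tregs 1 rose and 1 fell in KO cells, and 3 rose in WT cells, beside the shares of all genes just given. The 1 that fell was Aif1 (edgeR adjusted p = 0.041), a call that held in 6 of 16 alternatives. Aif1 had 18 to 62 counts in KO pre-Treg libraries, and 7 and 6 counts in KO de novo libraries. Lst1, a leukocyte gene next to Ltb, rose by 1.13 on the log2 scale in KO cells (SE 0.39, edgeR adjusted p = 0.0396) and by 1.96 in WT cells (SE 0.46, adjusted p = 0.00874). The KO call of Lst1 held in 8 of 16 alternatives and was lost without either de novo KO library (adjusted p = 0.108 and 0.206), among others. The WT call was lost without pre-Treg WT replicate 1 (adjusted p = 0.0736). Leaving out single libraries gave between 0 and 2 that rose in KO cells and between 0 and 3 in WT cells.

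Among Treg identity genes, 7 of 7 were tested at each stage. In de novo Tregs 2 rose and 0 fell in KO cells, the other 5 had log2 fold changes below 0, and the median of the 7 was -0.06. In splenic Tregs 1 rose, and in pre-Tregs 0 were called. Without pre-Treg KO replicate 2, 1 identity gene fell and 2 T cell activation genes rose in KO pre-Tregs. Ctla4, an inhibitory receptor, rose in KO de novo Tregs by 0.43 on the log2 scale (SE 0.07, edgeR adjusted p = 0.00429) and in KO splenic Tregs by 0.86 (SE 0.11, adjusted p = 0.0196). Il2ra, the alpha chain of the IL-2 receptor, rose in KO de novo Tregs by 0.44 (SE 0.07, edgeR adjusted p = 0.00465). With the spread shared over 13 libraries these calls were lost, at adjusted p of 0.519 for Ctla4 and 1 for Il2ra in de novo Tregs and 0.0501 for Ctla4 in splenic Tregs. Of 11 T cell activation genes tested in de novo Tregs, 0 rose and 1 fell in KO cells, namely Irf4, a transcription factor of activated lymphocytes, by 1.05 (SE 0.13, edgeR adjusted p = 0.000468), a call that held with every alternative run. Of the proteases that shed or cleave these ligands, 5 were tested at each stage and 0 were called for genotype. Leaving out single splenic libraries gave up to 1 protease that rose and 2 that fell, up to 3 identity genes that rose and 1 that fell, and up to 2 activation genes that rose and 2 that fell. Leaving out single de novo libraries gave up to 4 activation genes that fell.

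Across the 13 libraries, which share the steps between stages and tables, ligands were set beside each other by Pearson's r of log2 CPM, as a description only. Lta and Ltb had an r of 0.96 over the 13 libraries, Tnfsf11 and Cd40lg an r of 0.919, and Ltb and Cd40lg an r of -0.905. Tnf, between Ltb and Lta on the chromosome, had an r of 0.363 with Ltb and 0.356 with Lta. The genes of most similar pattern over the 13 libraries were Snx20, S1pr4 and Rnpepl1 for Ltb (0.992 to 0.996), and Spry1, Traf3ip3 and Abcd4 for Lta (0.981 to 0.982). For Cd40lg they were Rbmx (0.969), Bcl2l11 (0.959) and Lbp (0.955), and Bcl2l11 was also first for Tnfsf11 (0.971). Taok2 (0.963), Synpo (0.958) and Pcnxl3 (0.94) came first for Tnf, Zfp646 (0.949) for Tnfsf10 and Rpl13a-ps1 (0.953) for Tnfsf14. Tnfsf8 had the weakest likeness of the 8, with Kif1b (0.858), Tbc1d4 (0.853) and Fam107b (0.85).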

How the data were processed

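The deposited values are raw counts of reads per gene, not normalized by the authors, in a separate table for each stage. Per the submitters' processing notes the steps used STAR 2.5.2, featureCounts of Subread 1.5.2, Picard 2.9.0, limma, MultiQC and FastQC, on build GRCm38. Neither the annotation release nor whether counting used strand is stated. The pre-Treg table lists 47729 genes with a gene length in bases, deposited by the authors and used here for RPKM in all tables; the 3 tables share 22048 genes. All per-sample columns were used. Groups follow the sample titles.

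Counts were analysed with edgeR 4.0.16 (R 4.3.3), by TMM normalization, genes kept by filterByExpr at min.count 10 and min.total.count 15, and a quasi-likelihood F-test with Benjamini-Hochberg adjustment over all genes tested, each stage alone for genotype, and all 13 libraries for stage, interaction and the common genotype effect. The SE is the log2 fold change divided by the square root of F. The test was also run on simulated counts, and the outcome of that run is not reported here. Likeness used log2 CPM with a prior count of 2. Alternatives were DESeq2 1.42.0, limma-voom (limma 3.58.1), RLE normalization, no filter, a replicate block, a shared spread and leaving out each library. Where a group had 2 libraries, leaving 1 out left a single library, and the spread of that group could not be measured. Calls gained for genotype within a stage in such a fit rest on the spread of the other group alone. Deviations of same-numbered KO and WT libraries from their group means had correlations of -0.168 to -0.0112. With 2 WT libraries a group these deviations mirror each other, so cross-numbered libraries gave the same size with the opposite sign. The correlations therefore cannot decide whether the numbers pair the libraries. Counts of replicates within each group differed by more than sampling noise. For 1 marker gene no result is reported here, and its list is counted without it. All 8 ligands, up to 4 called genes of a list per comparison by adjusted p, and the 3 most alike genes per ligand were eligible to be named; receptor levels beyond these were named after their values were seen. The ligands and the lists were chosen with earlier results of these data known.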

Additional observations from a re-analysis of the deposited data

How the results depend on the processing

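Whether the replicate numbers pair the libraries was not decided, and the block is given here alone. In pre-Tregs, where it rests on the numbers shared by 2 KO and 2 WT libraries, the replicate block called 1 ligand (Tnfsf8, -1.62, adjusted p = 0.0031) and 77 genes. A block by the numbers in the sample descriptions, without KO replicate 2 and chosen after seeing the data, also called 1 (Tnfsf8, adjusted p = 0.0348) and 479 genes. In splenic Tregs Cd40lg made 1 call with DESeq2, limma-voom, no count filter, the replicate block (adjusted p = 0.0347; 361 genes) and the crossed replicate block (0.000447; 803 genes; chosen after seeing the data). Cd40lg was not called there with RLE normalization, with the shared spread or without either WT library. Genes called in splenic Tregs numbered 168, against 526 with DESeq2, 475 without the filter and 60 with the shared spread. In de novo Tregs the shared spread called 0 ligands and 100 genes, against 766, and the block 962. Over all stages 111 genes were called, against 327 with DESeq2 and 35 with the block, and with the block 0 ligands. In pre-Tregs 0 genes were called, against 14 without the filter and 71 with the shared spread. DESeq2 called 1 ligand in the interaction of splenic minus pre-Treg. From de novo to splenic Tregs in WT cells DESeq2 (1583 genes, against 973) and no filter each called 5 ligands, adding Tnfsf10 and Cd40lg.

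Differences that were not called changed sign under some settings. In pre-Tregs Tnfsf10 was -4.1e-05 with DESeq2, -0.0884 with limma-voom, -0.18 with the block and -0.0149 with the shared spread. Ltb was -0.0065 with limma-voom and -0.35 with the description block. Lta was -0.0085 with the block and -0.17 with the description block, Tnfsf14 -0.17 and -0.21, and Cd40lg -0.0272 with the block. The interaction of Tnf for de novo minus pre-Treg was 0.0107 with DESeq2, 0.0107 with RLE normalization and 0.0012 without the filter.

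Leaving out each library in turn gave 0 to 4 called ligands in splenic Tregs, 0 to 1 over all stages, 2 to 5 for splenic over de novo in KO and 1 to 5 in WT cells. Log2 ranges that crossed 0, all of differences not called in the full comparison, were as follows. For genotype in pre-Tregs, Tnfsf10 from -0.14 to 0.24, Cd40lg from -0.12 to 0.22, Lta from -0.14 to 0.34, Ltb from -0.33 to 0.33 and Tnfsf14 from -0.11 to 0.45. For genotype in de novo Tregs, Ltb from -0.0321 to 0.21. For genotype in splenic Tregs, Tnfsf10 from -0.47 to 0.0685. For genotype over all stages, Ltb from -0.0212 to 0.20. For the interaction of de novo minus pre-Treg, Ltb from -0.24 to 0.42, Tnf from -0.24 to 0.28 and Tnfsf8 from -0.0837 to 0.72. For splenic minus pre-Treg, Ltb from -0.13 to 0.53, Tnfsf11 from -0.0595 to 0.11, Tnf from -0.41 to 0.0148 and Tnfsf10 from -0.46 to 0.0796. For splenic minus de novo, Tnfsf10 from -0.15 to 0.40, Cd40lg from -0.38 to 0.0182, Tnf from -0.50 to 0.024 and Ltb from -0.0654 to 0.26. For de novo over pre-Treg in KO cells, Tnfsf10 from -0.30 to 0.096 and Tnf from -0.45 to 0.0371. For the same step in WT cells, Tnfsf8 from -0.0565 to 0.53 and Tnf from -0.49 to 0.0315. For splenic over de novo in KO cells, Ltb from -0.14 to 0.17. For the same step in WT cells, Lta from -0.19 to 0.0946 and Ltb from -0.19 to 0.0544.

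With 2 or 3 libraries a group, uncalled differences were not shown to be absent. For Tnfsf14, with 23 to 73 counts in de novo libraries, counting error adds to the spread. The cause of each change with the processing was not tested.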
